A study of Mus musculus with 110 samples.

Results

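The NRF2 antioxidant genes described here were Nfe2l2, Keap1, Nqo1, Hmox1, Gclc, Gclm, Gsr, Txnrd1, Srxn1 and G6pdx, chosen by name as 10 of the 56884 genes in the count tables. They were measured by RNA sequencing of polyadenylated RNA in liver, interscapular brown (iBAT), inguinal white (iWAT) and epididymal white (eWAT) adipose tissue. Nfe2l2 encodes NRF2, a transcription factor that pairs with small MAF proteins on antioxidant response elements, and KEAP1 is the sensor that hands NRF2 to the CUL3 ubiquitin ligase until its cysteines are modified by oxidants or electrophiles. The other genes are well-known NRF2 targets. GCLC and GCLM form the enzyme that starts glutathione synthesis from cysteine, and GSR, TXNRD1 and SRXN1 reduce glutathione, thioredoxin and peroxiredoxins. NQO1 reduces quinones, HMOX1 breaks down heme and G6PDX makes NADPH in the first step of the pentose phosphate pathway. Activity of NRF2 is set largely by the stability of its protein, which RNA levels do not measure.

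The 28 mice were wild type C57BL/6N males of 16 weeks at the end of the experiment, 7 per group. Ctrl_RT and Ctrl_CE mice ate a diet with 0.86% methionine, and MetR_RT and MetR_CE mice one with 0.12%, for 7 days at 22 °C. Both diets lacked cysteine (0%), so the control animals shared that restriction. The CE groups then spent 24 h at 4 °C, and the RT groups had no cold exposure. This was an additional day, so the CE groups ended 1 day later than the RT groups. In every comparison of CE with RT groups, cold and the added day cannot be told apart. Tissues came from the same mice, except that 1 Ctrl_RT mouse had no iBAT library and 1 MetR_CE mouse no iWAT library here. The study left out 1 iBAT and 4 eWAT libraries, which left 105 libraries, with 7 per group except for 6 in iBAT Ctrl_RT, iBAT Ctrl_CE, iWAT MetR_CE and eWAT MetR_RT and 4 in eWAT Ctrl_RT. All 10 genes passed the filter of 10 total counts in each tissue. For the 10 genes, the eWAT results are given with all libraries where that ends a call. For the other gene lists of eWAT they are not given with all libraries.

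Library totals were lowest in liver, at 6987895 to 33444374 counts (median 14833327), against 12672686 to 31232349 for iBAT, 16607493 to 33141066 for iWAT and 22021114 to 33372110 for eWAT. Values are given as CPM, counts scaled to a common library total. Summed hepatocyte markers reached 45389 to 85540 CPM in liver and at most 6705 in the depots, and summed adipocyte markers 10105 to 30437 CPM in the depots and at most 46 in liver. Brown adipocyte markers summed to 8146 to 17429 CPM in iBAT, 52.3 to 6899 in iWAT, at most 41.7 in eWAT and at most 19.4 in liver. In these whole-tissue samples, fewer cells of a type and less RNA per cell cannot be told apart.

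On the GRCm38 assembly (mm10), Nfe2l2 lies at chr2:75675513-75704641 on the minus strand and Srxn1 at chr2:152105516-152111376 on the plus strand. Gclm lies at chr3:122245557-122270732 (plus strand). Nqo1 (chr8:107388225-107403206, minus), Hmox1 (chr8:75093621-75100589, plus) and Gsr (chr8:33652523-33698163, plus) share a chromosome, as do Keap1 (chr9:21229730-21239361, minus) and Gclc (chr9:77754535-77794485, plus). Txnrd1 lies at chr10:82833951-82897712 (plus) and G6pdx at chrX:74409483-74429194 (minus). Some exons overlap other genes, and whether reads were counted by strand was not given in the sources used here. The shared bases come to 13.6% of the exonic bases of G6pdx (with Ikbkg, opposite strand), 10.9% of Keap1 (with the antisense gene Gm16754) and, for Gclm, 4.71% with Gm17494 and 3.88% with the pseudogene Gm6061, and reads from these stretches cannot be told apart from those of the partner.

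The core of the antioxidant response element, TGACNNNGC on either strand, was searched in the RefSeq promoter windows of GRCm38.p6, which run from 250 bases before to 50 after each start site. There were 9 windows for 7 of the 10 genes, and Hmox1, Gclc and Gsr had no entry. The core was found in 5 of the 9 windows, 1 each for Nfe2l2, Gclm, Txnrd1, Srxn1 and G6pdx, against 4071 of all 32851 windows (12.4%). Txnrd1 had several windows, and those starting at chr10:82833701 and chr10:82860091 did not hold the core. Keap1 and Nqo1 did not hold these letters in the window searched. The 250 bases before the start are shown for the gene of the factor itself, for the subunit that tunes glutathione synthesis and for the reductase that rose with cold on the control diet in liver, iBAT and iWAT. They are read 5′ to 3′ along each gene's strand, and capitals mark the core (at -240, -134 and -92 from the start site, on the plus strand of the gene for Nfe2l2 and on the opposite strand for Gclm and Txnrd1). The Nfe2l2 stretch is chr2:75704664-75704913 (minus), the Gclm stretch chr3:122245307-122245556 (plus) and the Txnrd1 stretch chr10:82858956-82859205 (plus). Only windows that held the core were shown. The Txnrd1 stretch lies inside the span of the gene, before an internal start site, and 27 of its bases are exonic.
Nfe2l2: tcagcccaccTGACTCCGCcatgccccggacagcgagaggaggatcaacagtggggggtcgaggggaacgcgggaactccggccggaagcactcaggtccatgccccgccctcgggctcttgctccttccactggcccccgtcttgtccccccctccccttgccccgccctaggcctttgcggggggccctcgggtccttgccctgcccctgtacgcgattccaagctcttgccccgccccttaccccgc
Gclm: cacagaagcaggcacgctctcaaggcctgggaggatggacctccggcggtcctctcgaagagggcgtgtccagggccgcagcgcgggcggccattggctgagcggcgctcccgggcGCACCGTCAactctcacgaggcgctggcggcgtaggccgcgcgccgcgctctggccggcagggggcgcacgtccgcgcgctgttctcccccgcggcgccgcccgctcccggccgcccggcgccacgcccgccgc
Txnrd1: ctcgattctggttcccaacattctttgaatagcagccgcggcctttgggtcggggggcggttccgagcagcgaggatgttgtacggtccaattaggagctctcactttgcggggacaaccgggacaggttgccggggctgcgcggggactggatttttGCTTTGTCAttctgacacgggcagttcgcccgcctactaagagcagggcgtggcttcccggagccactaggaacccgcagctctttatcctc
A match of these letters is a description of the sequence and not a measured binding site.

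Levels differed between tissues in the Ctrl_RT mice, which had eaten the control diet without cysteine for 7 days. In Ctrl_RT mice, expressed as CPM per kilobase of exon so that genes can be compared, Gclc was the most abundant of the 10 genes in liver (91.1 ± 20.6, SD, n = 7) and G6pdx the least (1.41). In the depots the order was turned, with G6pdx highest (103 for iBAT, 75.7 for iWAT, 94.1 for eWAT) and Nqo1 lowest (0.923, 2.34 and 4.05). iWAT also stood out for Hmox1, at 70.02 CPM per kilobase against 5.13 in iBAT, 13.9 in eWAT and 12.1 in liver.

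A fit over all 4 tissues, with no term for the mouse, compared Ctrl_RT levels. The counts of liver and of eWAT were deposited apart from those of iBAT and iWAT. For them, tissue and deposited set cannot be told apart. Adjusted p-values under 0.05 from edgeR's quasi-likelihood test were counted as called. Between liver and iWAT, 8 of the 10 genes differed (55.1% of all genes tested did). Gclc was higher in liver by 4.20 ± 0.12 on the log2 scale and Gclm by 2.58, while G6pdx differed by -5.23 ± 0.22 and Hmox1 by -2.01. Nqo1 (adjusted p = 0.138) and Srxn1 (adjusted p = 0.153) did not pass. Between iBAT and iWAT 9 differed (44.4% of all genes), and the one that did not was Nfe2l2. The log2 difference of iBAT from iWAT was -3.41 for Hmox1, -0.98 for Nqo1 and 0.81 for G6pdx. Between iWAT and eWAT 6 differed (22.9% of all genes), among them Hmox1, 2.52 log2 higher in iWAT, and Srxn1, 0.88 higher.

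**Figure D1:**
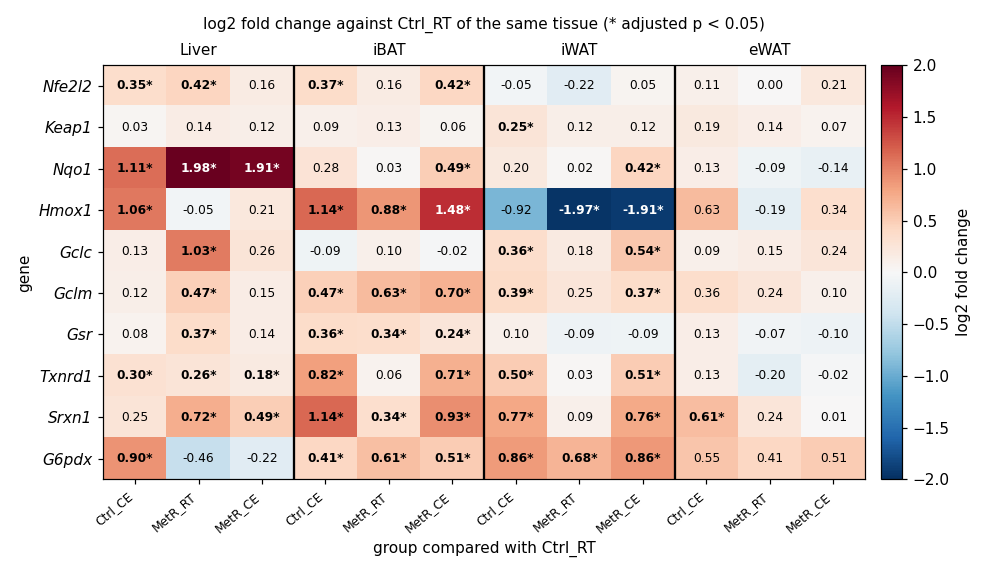
Heat map of the log2 fold change of the 10 genes (rows) in Ctrl_CE, MetR_RT and MetR_CE against Ctrl_RT of the same tissue (columns), with colour from blue (lower) to red (higher) and an asterisk for an adjusted p under 0.05. Nqo1 reaches 1.98 in MetR_RT liver, Hmox1 -1.97 in MetR_RT iWAT, and asterisks are fewest in eWAT.

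The first question in each tissue was what methionine restriction, cold or both did relative to Ctrl_RT. These comparisons share the Ctrl_RT libraries and are therefore not independent of each other. In liver, MetR_RT upregulated 7 of the 10 genes and downregulated 0, where 10.1% of all genes tested were higher (18.8% in either direction). The median log2 fold change of the 10 genes was 0.40 against 0.00 over all genes. The upregulated genes were the factor itself, both glutamate-cysteine ligase subunits, the 3 reducing enzymes and Nqo1.

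Nqo1 changed most of the 10 genes on the log2 scale. Its lowest, median and highest values were 1.68, 2.20 and 5.74 CPM in Ctrl_RT, 4.91, 6.37 and 9.69 in Ctrl_CE, 11, 12.2 and 14.6 in MetR_RT. In MetR_CE they were 9.17, 11.8 and 17.1. Both MetR groups lay wholly above Ctrl_RT, and Ctrl_CE lay between and overlapped it. The log2 fold change was 1.98 ± 0.22 in MetR_RT (edgeR, adjusted p = 9.21e-08) and 1.91 ± 0.22 in MetR_CE (adjusted p = 5.67e-08), here and below ± its standard error.

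Gclc, the catalytic subunit, ranged from 206 to 409 CPM in Ctrl_RT (median 361) and from 607 to 798 (median 701) in MetR_RT. In the cold its range was 284.2 to 499.9 (median 378) on the control diet and 369 to 501 (median 395) on the restricted diet. MetR_RT alone stood apart, above each of the other groups. The rise was 1.03 ± 0.13 in MetR_RT (adjusted p = 8.07e-07), whereas MetR_CE was 0.26 ± 0.13 from Ctrl_RT (adjusted p = 0.126).

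Gclm, the modifier subunit, had the same order. Its range was 193.6 to 262.7 CPM in Ctrl_RT (median 209), 219.3 to 273.3 in Ctrl_CE (median 235), 270 to 324 in MetR_RT (median 310) and 219.3 to 255.2 in MetR_CE (median 238). All MetR_RT mice were again above all Ctrl_RT mice. Gclm rose by 0.47 ± 0.06 in MetR_RT (adjusted p = 3.36e-06). Nqo1, Gclc and Gclm were the 3 of 10 genes whose MetR_RT and Ctrl_RT ranges did not overlap, where 5.51% of all genes tested had ranges apart.

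Of the 3 reducing enzymes, Srxn1, which repairs overoxidised peroxiredoxins, went from 40.03 to 56.01 CPM in Ctrl_RT (median 45.3) to 51.96 to 110.3 in MetR_RT (median 77.4), a rise of 0.72 ± 0.12 (adjusted p = 3.23e-05) with overlapping ranges. Gsr rose by 0.37 ± 0.07 (adjusted p = 0.000187) and Txnrd1 by 0.26 ± 0.07 (adjusted p = 0.00419). Nfe2l2 was at 48.3, 64.5 and 73.4 CPM (lowest, median and highest) in Ctrl_RT and at 70.6, 81.7 and 92.6 in MetR_RT, a rise of 0.42 ± 0.08 (adjusted p = 0.000475). Keap1 (0.14 ± 0.05, adjusted p = 0.0646), Hmox1 (-0.05 ± 0.22, adjusted p = 0.911) and G6pdx (-0.46 ± 0.24, adjusted p = 0.201) did not pass.

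**Figure D2:**
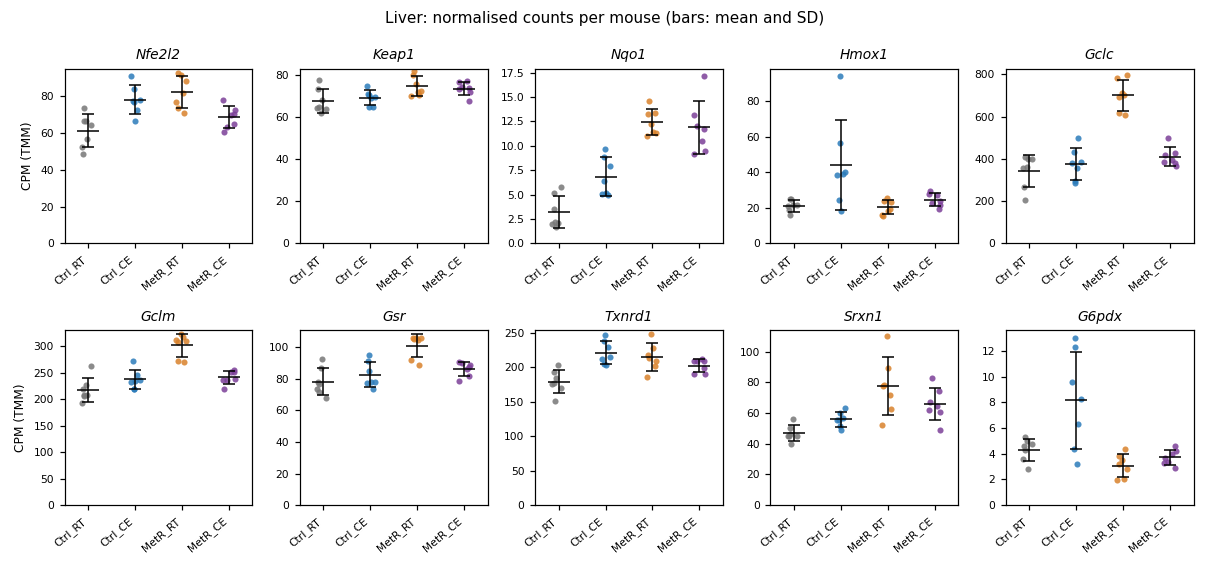
CPM of each of the 10 genes in liver (vertical axes from 0), 1 point per mouse and 7 mice per group, with bars for mean and SD. Gclc lies between 607 and 798 CPM in MetR_RT, above every mouse of the other groups, and Nqo1 lies at or above 9.17 CPM in both MetR groups.

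Cold on the control diet upregulated 5 of the 10 genes in liver and downregulated 0 (14.7% of all genes were higher, 28.8% called in either direction), and the groups overlapped for every one of the 10, where 7.5% of all genes had ranges apart. The median was 0.28 against -0.01 over all genes. Nqo1 rose by 1.11 ± 0.22 (adjusted p = 0.000283), Hmox1 by 1.06 ± 0.22 (adjusted p = 0.000454), G6pdx by 0.90 ± 0.23 (adjusted p = 0.003), Nfe2l2 by 0.35 ± 0.08 (adjusted p = 0.00206) and Txnrd1 by 0.30 ± 0.07 (adjusted p = 0.000617). Gclc (0.13), Gclm (0.12) and Gsr (0.08), which take part in making and reducing glutathione, did not pass here, and neither did Srxn1 (0.25) or Keap1 (0.03).

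Hmox1 and G6pdx varied widely among the Ctrl_CE livers. Hmox1 ran from 15.8 to 25.2 CPM in Ctrl_RT (median 21.5) and from 18 to 94.5 in Ctrl_CE (median 39). G6pdx ran from 2.82 to 5.27 CPM in Ctrl_RT and from 3.20 to 13 in Ctrl_CE. Both were highest in Ctrl_CE mice 2 and 4, at 56.6 and 94.5 CPM of Hmox1 and 12.3 and 13 CPM of G6pdx. The same livers had the highest sums over 8 macrophage markers, 765 and 742 CPM. That sum ran from 208.5 to 293.8 CPM in Ctrl_RT and 215 to 765 in Ctrl_CE. It ran from 124 to 214 in MetR_RT and 223.9 to 261.9 in MetR_CE. In Ctrl_CE 6 of the 8 markers rose (14.7% of all genes were higher). The part of these markers in the Hmox1 and G6pdx values was not tested. Without Ctrl_CE mouse 4 the change of Hmox1 was 0.77 (adjusted p = 0.000938) and that of G6pdx 0.78 (adjusted p = 0.00811), and without mouse 2 they were 0.99 and 0.77.

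Fewer of the 10 genes were called with both interventions than with methionine restriction at 22 °C. At an unadjusted p under 0.05 (edgeR) the counts were closer, with 7 of 10 in MetR_CE and 8 in MetR_RT. In MetR_CE liver 3 were upregulated relative to Ctrl_RT and 0 downregulated (15.2% of all genes higher, 30.3% in either direction), namely Nqo1, Srxn1 (0.49 ± 0.12, adjusted p = 0.00141) and Txnrd1 (0.18 ± 0.07, adjusted p = 0.0393). Of the 10 genes, 1 had ranges apart, Nqo1 (12% of all genes did). The call on Txnrd1 ended with other scaling factors (0.17) and when any one of 8 libraries was left out.

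Set directly against MetR_RT, MetR_CE had 4 genes lower and 0 higher (18% of all genes called). Gclc fell by 0.77 ± 0.13 on the log2 scale (adjusted p = 5.92e-05), Gclm by 0.32 ± 0.06 (adjusted p = 0.000476), Nfe2l2 by 0.26 (adjusted p = 0.0265) and Gsr by 0.23 (adjusted p = 0.0159). For Gclc and Gclm the groups did not overlap, and the share of all genes with ranges apart is not given for this comparison. The call on Nfe2l2 ended without any one of 6 libraries and that on Gsr without either of 2, and both ended, leaving 2 genes, without MetR_CE mouse 5. Against Ctrl_CE, MetR_CE had Nqo1 higher by 0.80 ± 0.20 (adjusted p = 0.00686) and Hmox1 (-0.84 ± 0.22, adjusted p = 0.00906) and G6pdx (-1.12 ± 0.23, adjusted p = 0.00124) lower (12.1% of all genes called). In the same comparison 7 of the 8 macrophage markers were lower and 0 higher, with sums of 223.9 to 261.9 CPM in MetR_CE against 215 to 765 in Ctrl_CE, and their part in the Hmox1 and G6pdx values was not tested.

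The diet by temperature interaction asks whether the effect of cold differed between the diets. In liver it was called for 5 of the 10 genes, each below 0 (1.76% of all genes called), with a median over the 10 genes of -0.55 against -0.03 over all genes. The values were -0.61 ± 0.12 for Nfe2l2 (adjusted p = 0.00833), -0.90 ± 0.18 for Gclc and -0.45 ± 0.09 for Gclm (adjusted p = 0.00908 for both), -1.18 ± 0.29 for Nqo1 (adjusted p = 0.0355) and -0.39 ± 0.09 for Txnrd1 (adjusted p = 0.0261). A negative value means that the groups with both interventions lay below the sum of the single effects. The call on Nqo1 ended without any one of 11 libraries, and without Ctrl_CE mouse 2 that on Txnrd1 ended too, which left 3 genes.

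The wider glutathione, detoxification and heme genes of liver were examined as lists. Of all genes tested in liver, 18.8% were called in MetR_RT, 28.8% in Ctrl_CE and 30.3% in MetR_CE, in either direction. Between MetR_CE and MetR_RT 18% were called, and the interaction was called for 1.76%. All liver list counts below are to be read beside these shares. Of 22 glutathione S-transferase genes, whose products couple glutathione to electrophiles, 14 rose and 1 fell in MetR_RT, 9 rose and 3 fell in Ctrl_CE, and 12 rose and 3 fell in MetR_CE. Their median in MetR_RT was 0.94. Gsta2 rose by 3.99 ± 0.30 in MetR_RT (adjusted p = 6.4e-11), from a mean of 1.9 to 30.5 CPM, and Gstm3 by 2.99 ± 0.25, from 15.1 to 120 CPM. Gstm1 was the most abundant of those that rose, from 416 to 2160.1 CPM. Against MetR_RT, 10 of the 22 were lower and 0 higher in MetR_CE, and the interaction was called for 7, each below 0, from -0.84 for Gsta3 to -2.17 for Gstm3. Mgst1 was the one that fell in MetR_RT. The Gsta and Gstm genes form families of similar sequence, so reads may be split between neighbours.

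**Figure D3:**
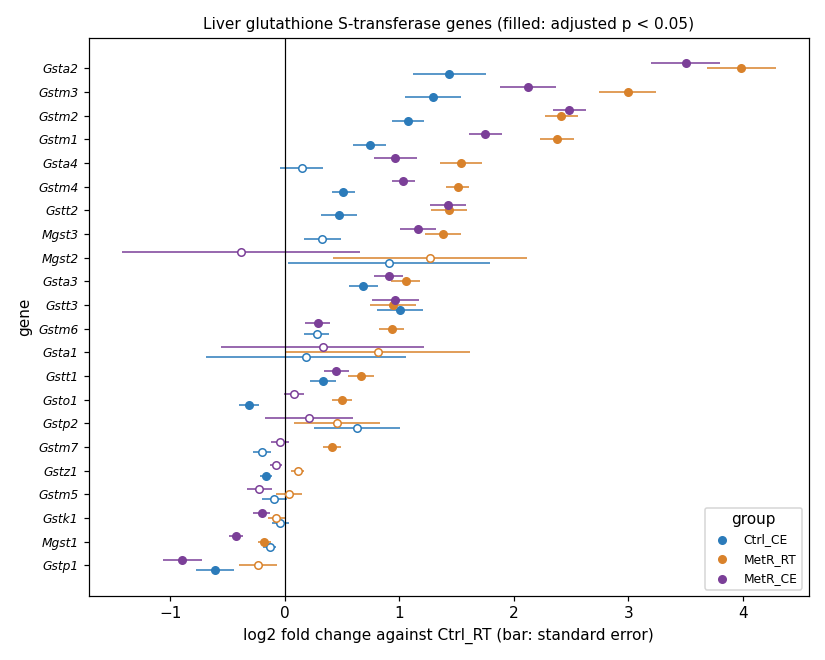
Log2 fold change against Ctrl_RT (horizontal axis) of 22 glutathione S-transferase genes in liver (vertical axis), with bars for the standard error and filled points for an adjusted p under 0.05. Gsta2, at 3.99, and Gstm3, at 2.99, are farthest to the right in MetR_RT.

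Of 12 genes of quinone and drug detoxification and efflux that passed the count filter in liver, 9 rose and 0 fell in MetR_RT (median 1.09), 8 rose and 1 fell in Ctrl_CE, and 9 rose and 1 fell in MetR_CE. The exporter gene Abcc4 rose by 1.88 in MetR_CE and Aox1, an aldehyde oxidase, by 1.45 ± 0.12 in MetR_RT, from 76.6 to 210 CPM. The interaction was below 0 for 6 of the 12. Of 7 genes of heme breakdown and ferritin, 6 rose and 0 fell in MetR_RT, although Hmox1 itself did not pass. Ferritin heavy chain Fth1 rose by 0.76 ± 0.07, the iron exporter Slc40a1 by 0.93 ± 0.13 and the biliverdin reductase Blvrb by 0.89 ± 0.09. Liver red blood cell markers moved the other way in these mice, with 3 of 5 lower in MetR_RT and 4 of 5 in MetR_CE.

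Of 11 partners, competitors and degradation factors of NRF2, 6 rose and 0 fell in MetR_RT, 5 rose and 1 fell in Ctrl_CE, and 6 rose and 0 fell in MetR_CE. The small MAF genes Maff (1.49 ± 0.31, from 2.32 to 6.55 CPM) and Mafg (0.62 ± 0.09) and the KEAP1-binding adaptor Sqstm1 (0.44 ± 0.07) rose in MetR_RT, and Bach1, whose product competes with NRF2, rose by 0.76 in MetR_CE. Of 11 genes of cystine uptake and glutathione turnover, 4 rose and 2 fell in MetR_RT, 1 rose and 0 fell in Ctrl_CE, and 4 rose and 1 fell in MetR_CE. Slc3a2, a heavy chain shared by several amino acid transporters including that of cystine, rose by 1.49 ± 0.13 in MetR_RT, from 43.7 to 123 CPM. Gss, the second enzyme of glutathione synthesis, rose by 0.33 ± 0.06. The gamma-glutamyl transferase gene Ggt6 fell by 0.66 in MetR_CE.

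Among the genes of peroxide removal, 8 of 13 in the thioredoxin and peroxiredoxin list rose and 1 fell in MetR_RT, 4 rose and 4 fell in Ctrl_CE, and 5 rose and 3 fell in MetR_CE. Those with the largest changes were Txnip (1.25 ± 0.22 in MetR_RT), whose product inhibits thioredoxin, and Sesn2 (0.69 ± 0.18), a sestrin. Of 10 glutathione peroxidase and glutaredoxin genes, 3 rose and 1 fell in MetR_RT, 1 rose and 2 fell in Ctrl_CE, and 1 rose and 1 fell in MetR_CE. Gpx1 was at -1.37 in MetR_CE. In Ctrl_CE and MetR_CE the counts of this list were near or below the shares over all genes. Of the superoxide dismutases and catalase (4 genes), 2 rose and 1 fell in Ctrl_CE and 1 rose and 1 fell in MetR_CE. None of the 4 was called in MetR_RT by edgeR (1 at an unadjusted p under 0.05).

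Genes of NADPH supply and of fatty acid synthesis were examined too. Of 7 NADPH supply genes, 4 rose and 2 fell in Ctrl_CE, 4 rose and 1 fell in MetR_RT, and 3 rose and 2 fell in MetR_CE. Malic enzyme Me1 rose by 2.50 ± 0.30 in Ctrl_CE, from 183 to 1032 CPM, and transketolase Tkt by 1.13 ± 0.13 in MetR_RT. Of 7 lipogenic genes, 5 rose and 1 fell in Ctrl_CE, including Elovl6 (2.43 ± 0.31) and Fasn (2.15 ± 0.42), 3 rose and 0 fell in MetR_RT, and 3 rose and 1 fell in MetR_CE.

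In iBAT, the heat-producing depot, cold upregulated 7 of the 10 genes and downregulated 0 (15.3% of all genes higher, 33.2% called in either direction), with a median of 0.39 against -0.08. MetR_RT upregulated 5 and downregulated 0 (2.9% higher, 6.8% in either direction; median 0.25 against -0.04). MetR_CE upregulated 8 and downregulated 0 (15% higher, 33.4% in either direction; median 0.50 against -0.10). Gclc and Keap1 were called in none of these, and Gclc lay within 0.10 of Ctrl_RT on the log2 scale in each.

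Txnrd1 and Srxn1 followed temperature in iBAT. Txnrd1 had lowest, median and highest values of 135, 150 and 153 CPM in Ctrl_RT, 140, 153 and 168 in MetR_RT, 244.1, 258.1 and 278.4 in Ctrl_CE and 222.1, 233.3 and 280.8 in MetR_CE. The cold groups lay wholly above both groups at 22 °C. The log2 fold change was 0.82 ± 0.05 in Ctrl_CE (adjusted p = 2.33e-12), 0.71 ± 0.05 in MetR_CE (adjusted p = 2.73e-11) and 0.06 in MetR_RT (adjusted p = 0.538).

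Srxn1 ran from 61.4 to 75.6 CPM in Ctrl_RT (median 71.3), from 71.7 to 110 in MetR_RT (median 84.8), from 129 to 178 in Ctrl_CE (median 159) and from 125 to 136 in MetR_CE (median 135). Again the cold groups did not overlap those at 22 °C. Srxn1 rose by 1.14 ± 0.08 in Ctrl_CE (adjusted p = 1.11e-11), by 0.34 ± 0.08 in MetR_RT (adjusted p = 0.00743) and by 0.93 ± 0.08 in MetR_CE (adjusted p = 4.18e-10).

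Hmox1 rose with either intervention in iBAT. Its values were 6.71, 8.65 and 12.7 CPM in Ctrl_RT, 12.9, 19.7 and 29.4 in Ctrl_CE, 10.2, 16.1 and 22.3 in MetR_RT. In MetR_CE they were 16.9, 26.2 and 37.2. Every cold-exposed mouse was above every Ctrl_RT mouse. The changes were 1.14 ± 0.19 (adjusted p = 1.84e-05), 0.88 ± 0.19 (adjusted p = 0.00326) and 1.48 ± 0.19 (adjusted p = 2.54e-07), in that order. The sum over the 8 macrophage markers ran from 95.9 to 165 CPM in Ctrl_RT and 62.5 to 144 in Ctrl_CE. It ran from 49.8 to 92.3 in MetR_RT and 40.2 to 68.1 in MetR_CE. In MetR_CE 7 of the 8 markers were lower (18.5% of all genes were). The part of these cells in the Hmox1 values of iBAT was not tested.

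Gclm and G6pdx rose in all 3 iBAT groups. Gclm ran from 49.3 to 69.6 CPM in Ctrl_RT, 60.9 to 98.6 in Ctrl_CE, 72.3 to 107 in MetR_RT and 84 to 99.99 in MetR_CE. It rose by 0.47 ± 0.10 in Ctrl_CE, by 0.63 ± 0.10 in MetR_RT (adjusted p = 0.00016) and by 0.70 ± 0.10 in MetR_CE (adjusted p = 1.64e-06), without overlap in the MetR groups. G6pdx rose by 0.41, 0.61 ± 0.10 and 0.51 in Ctrl_CE, MetR_RT and MetR_CE, and both MetR groups lay above Ctrl_RT. Gsr rose by 0.36, 0.34 and 0.24, and its MetR_RT range did not overlap Ctrl_RT.

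Nfe2l2 rose in the cold in iBAT, by 0.37 ± 0.07 in Ctrl_CE (adjusted p = 7.64e-05) and by 0.42 ± 0.07 in MetR_CE (adjusted p = 1.09e-05), and was 0.16 in MetR_RT (adjusted p = 0.149). Nqo1, at 1.09 to 1.77 CPM in Ctrl_RT, rose by 0.49 ± 0.16 in MetR_CE alone (adjusted p = 0.0197). Ranges were apart from Ctrl_RT for 3 of the 10 genes in Ctrl_CE (15.6% of all genes), 3 in MetR_RT (2.78%) and 6 in MetR_CE (15.5%).

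Diet made no called difference in the cold in iBAT. MetR_CE against Ctrl_CE gave 0 of 10 by edgeR and 0 by DESeq2 (4.78% of all genes called), with 3 at an unadjusted p under 0.05. MetR_CE against MetR_RT gave 5 higher and 0 lower (25.5% of all genes called), which were Txnrd1 (0.64 ± 0.05), Srxn1 (0.58 ± 0.08), Hmox1 (0.60), Nfe2l2 (0.25) and Nqo1 (0.46). Txnrd1 and Srxn1 did not overlap, and the share of all genes with ranges apart is not given for this comparison. The interaction was called for Gsr (-0.46 ± 0.09, adjusted p = 0.0139) and Srxn1 (-0.56 ± 0.11, adjusted p = 0.0121), 2 of 10 where 0.903% of all genes were called. Replicate 1 of 3 iBAT groups carried a treatment tag that named another group than the title, and grouping by that tag left 3 calls between MetR_CE and MetR_RT and 0 interactions.

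Other antioxidant lists of iBAT are set beside the 17.9% of all genes that were lower in Ctrl_CE and the 18.5% that were lower in MetR_CE. Higher were 15.3% in Ctrl_CE, 2.9% in MetR_RT and 15% in MetR_CE, and 6.8% were called in either direction in MetR_RT. Of 19 glutathione S-transferase genes tested, 1 rose and 11 fell in Ctrl_CE, 3 rose and 0 fell in MetR_RT, and 0 rose and 8 fell in MetR_CE, with Gstz1 at -0.91 ± 0.10 in Ctrl_CE. Of 13 detoxification and efflux genes, 0 rose and 6 fell in Ctrl_CE, 0 rose and 1 fell in MetR_RT and 0 rose and 8 fell in MetR_CE. The list medians in Ctrl_CE were -0.35 and -0.58, against -0.08 over all genes. Osgin1 fell by 1.01 and Aox1 by 0.86 in Ctrl_CE. In the thioredoxin and peroxiredoxin list 3 of 13 rose and 4 fell in Ctrl_CE, among them Prdx6, a peroxiredoxin, which rose by 0.98 ± 0.05 (adjusted p = 9.2e-14), from 167 to 329 CPM.

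Other iBAT lists were mixed. Of 11 genes of cystine uptake and glutathione turnover, 4 rose and 2 fell in Ctrl_CE, 0 rose and 1 fell in MetR_RT and 3 rose and 3 fell in MetR_CE, with Slc3a2 higher by 1.45 ± 0.10 in MetR_CE. Of 7 heme and ferritin genes, 2 rose and 4 fell in Ctrl_CE and 2 rose and 4 fell in MetR_CE, including Hmox2, the constitutive heme oxygenase (0.80 ± 0.06 in Ctrl_CE), and Blvrb (-0.95 in MetR_CE). Of 7 NADPH supply genes, 2 rose and 2 fell in Ctrl_CE, 4 rose and 0 fell in MetR_RT and 5 rose and 1 fell in MetR_CE, with Me1 higher by 0.80 ± 0.15 in MetR_RT. Of the 11 NRF2 partners, 3 rose and 5 fell in Ctrl_CE, 2 rose and 0 fell in MetR_RT and 4 rose and 3 fell in MetR_CE.

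In iWAT, cold upregulated 6 of the 10 genes and downregulated 0 (14.6% of all genes higher, 30.8% called in either direction), with a median of 0.31 against -0.11. Ranges overlapped for each of the 10, where 6.6% of all genes had ranges apart. G6pdx rose from 151, 218 and 402 CPM (lowest, median and highest in Ctrl_RT) to 360, 436 and 476, a change of 0.86 ± 0.17 (adjusted p = 0.000336). Srxn1 rose from 42.6, 51.2 and 81.9 CPM to 77.6, 96.6 and 120, a change of 0.77 ± 0.14 (adjusted p = 0.000105). Txnrd1 rose by 0.50 ± 0.11, Gclm by 0.39 ± 0.13 (adjusted p = 0.028), Gclc by 0.36 ± 0.08 and Keap1, the negative regulator, by 0.25 ± 0.07 (adjusted p = 0.0066), while Nfe2l2 was -0.05 (adjusted p = 0.735). The call on Gclm ended when any one of 5 Ctrl_RT mice was left out.

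MetR_RT had 1 gene higher and 1 lower in iWAT (11% of all genes higher, 22.4% in either direction), with a median of 0.06 against -0.03. G6pdx rose by 0.68 ± 0.17 (adjusted p = 0.00388) and Hmox1 was the gene that fell. Without Ctrl_RT mouse 5, whose Gclm and G6pdx were far above its group, 5 genes were called, with Keap1 (0.18), Gclc (0.24) and Gclm (0.40) added.

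MetR_CE had 6 genes higher and 1 lower in iWAT (17.2% of all genes higher, 37% in either direction), with a median of 0.40 against -0.08. Gclc ran from 34.6 to 41.7 CPM against 23 to 33.3 in Ctrl_RT, without overlap, and rose by 0.54 ± 0.09 (adjusted p = 1.52e-05). Txnrd1 ran from 152 to 191 CPM against 96.1 to 136, also without overlap, and rose by 0.51 ± 0.11 (adjusted p = 0.000532). Ranges were apart for 3 of the 10 genes, Gclc, Txnrd1 and Hmox1 (18.6% of all genes had ranges apart). G6pdx (0.86), Srxn1 (0.76), Nqo1 (0.42, adjusted p = 0.0275) and Gclm (0.37, adjusted p = 0.0357) rose with overlapping ranges, and the calls on Nqo1 and Gclm ended without any one of 4 and of 7 libraries.

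Hmox1 fell in both MetR groups of iWAT. Its lowest, median and highest values were 50.1, 117 and 250 CPM in Ctrl_RT, 23.2, 39.97 and 202 in Ctrl_CE, 18.7, 25.8 and 52.5 in MetR_RT. In MetR_CE they were 29.1, 31.95 and 36.5. MetR_CE lay wholly below Ctrl_RT, MetR_RT overlapped it slightly, and 1 Ctrl_CE mouse was high. The log2 fold change was -1.97 ± 0.38 in MetR_RT (adjusted p = 0.000504) and -1.91 ± 0.40 in MetR_CE (adjusted p = 0.000415). In Ctrl_CE it was -0.92 ± 0.37 (adjusted p = 0.0603), and -1.55 (adjusted p = 0.000295) without Ctrl_CE mouse 5, at 202 CPM, or -1.06 (adjusted p = 0.032) without Ctrl_RT mouse 4.

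The macrophage markers of iWAT fell in all 3 groups. All 8 were lower in Ctrl_CE (median -1.15, 30.8% of all genes called in either direction) and in MetR_CE (median -2.59, 37%). In MetR_RT 7 of the 8 markers were lower (median -1.41, 22.4%). Their sum ran from 1791 to 3066 CPM in Ctrl_RT (median 1901), 398 to 2061 in Ctrl_CE (median 826), 343 to 1444 in MetR_RT (median 603) and 273.3 to 649 in MetR_CE (median 348). Adgre1, which encodes F4/80, fell from 89.9 to 11.3 CPM in MetR_CE and the lysozyme gene Lyz2 from 764 to 106. Within Ctrl_RT the mouse with the highest sum (3066 CPM) had 81.7 CPM of Hmox1, and the mouse with the highest Hmox1 (250 CPM) had a sum of 2106. In MetR_RT, mice 2 and 5 had both the highest sums (1350 and 1444 CPM) and the highest Hmox1 (44.7 and 52.5). For Ctrl_CE the highest sum (2061 CPM) came with 73.9 CPM of Hmox1, and the highest Hmox1 (202 CPM) with a sum of 1069. For MetR_CE these pairs were 649 with 31.9 CPM and 36.5 with a sum of 401. The part of these cells in the Hmox1 values was not tested. Brown adipocyte markers rose in the same depot, 5 of 5 in each group, with Ucp1 higher by 4.58 ± 0.77 in MetR_CE, and their part in the changes of the 10 genes was not tested either.

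**Figure D4:**
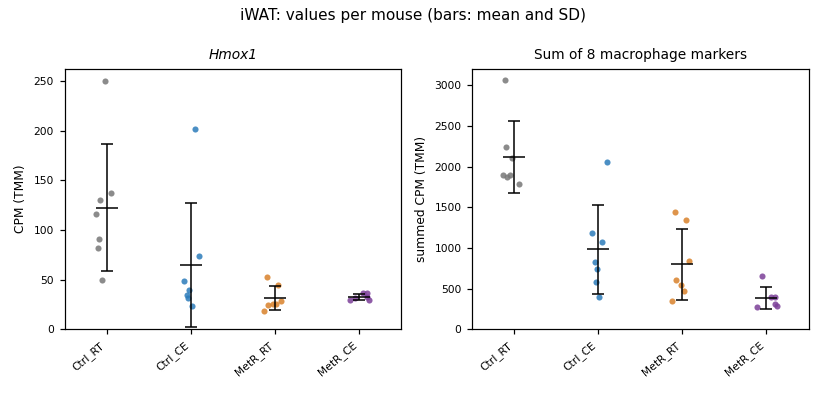
CPM of Hmox1 (left) and summed CPM of 8 macrophage markers (right) in iWAT, 1 point per mouse, with bars for mean and SD in Ctrl_RT, Ctrl_CE and MetR_RT (7 mice each) and MetR_CE (6 mice). Both are highest in Ctrl_RT, with medians of 117 and 1901 CPM, and MetR_CE mice lie at or below 36.5 and 649 CPM.

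No difference between MetR_CE and Ctrl_CE was called for the 10 genes in iWAT by edgeR or DESeq2 (0 of 10, with 3.37% of all genes called and 3 of the 10 at an unadjusted p under 0.05). Against MetR_RT, 3 were higher and 0 lower in MetR_CE (5.41% of all genes called), which were Srxn1 (0.66 ± 0.14, adjusted p = 0.0067), Txnrd1 (0.48 ± 0.11, adjusted p = 0.0115) and Gclc (0.36 ± 0.09, adjusted p = 0.0141). Only Txnrd1 had ranges apart, and the share of all genes that did is not given for this comparison. The interaction was called for 0 of 10 by edgeR and 2 by DESeq2 (2.95% of all genes by edgeR), with 3 at an unadjusted p under 0.05. Without Ctrl_CE mouse 5 it was called for Hmox1 (1.60, adjusted p = 0.0356), and without Ctrl_RT mouse 5 for Keap1 (-0.32) and G6pdx (-0.86, adjusted p = 0.0113).

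**Figure D5:**
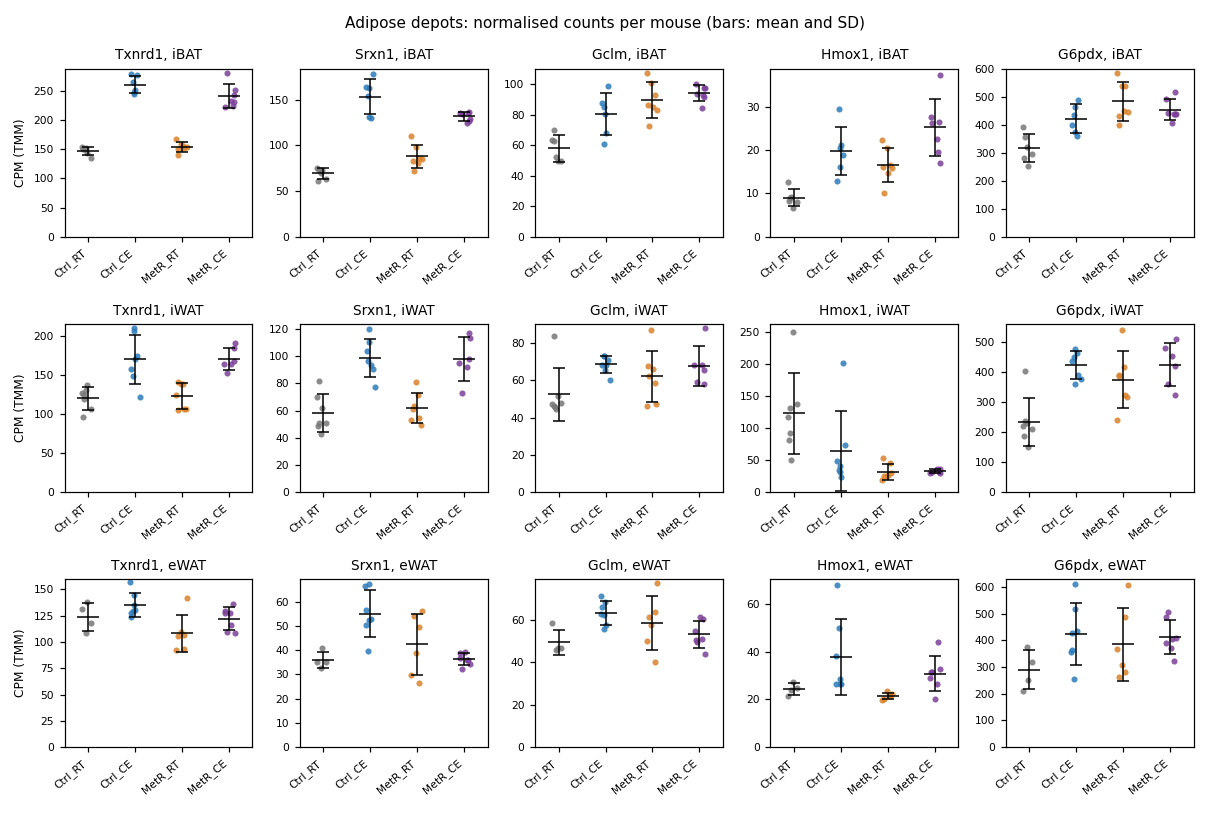
CPM of Txnrd1, Srxn1, Gclm, Hmox1 and G6pdx (columns) in iBAT, iWAT and eWAT (rows), 1 point per mouse, with bars for mean and SD and vertical axes from 0. In iBAT, Txnrd1 lies at or below 168 CPM at 22 °C and at or above 222 CPM in the cold, and Hmox1 in iWAT has its highest mice in Ctrl_RT (250 CPM) and Ctrl_CE (202 CPM).

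Of all genes tested in iWAT, 30.8% were called in Ctrl_CE, 22.4% in MetR_RT and 37% in MetR_CE, in either direction, and 2.95% for the interaction. Of the wider iWAT lists, to be read beside these shares, the thioredoxin and peroxiredoxin list had 8 of 13 genes higher and 2 lower in Ctrl_CE. The same list had 7 higher and 3 lower in MetR_RT and 8 higher and 3 lower with both interventions. Sesn2 rose by 1.44 ± 0.26 and Prdx6 by 1.02 ± 0.10 in MetR_CE, and Sesn1 fell by 0.92. Of 7 NADPH supply genes 6 rose in Ctrl_CE, 5 in MetR_RT and 3 in MetR_CE, with 0 lower in each. Me1 rose by 1.55 ± 0.38 and Tkt by 1.24 ± 0.27 in Ctrl_CE, and the interaction was below 0 for 4 of the 7. Of 19 glutathione S-transferase genes 4 rose and 1 fell in Ctrl_CE, 8 rose and 0 fell in MetR_RT and 7 rose and 1 fell in MetR_CE, with Mgst2 higher by 0.94 in Ctrl_CE.

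Among the genes around NRF2 in iWAT, 5 of 11 partners rose and 2 fell in MetR_CE (37% of all genes called). Nfe2l1, the related factor NRF1, rose by 0.77 ± 0.10 and Bach1 fell by 0.86 ± 0.11, from 48.4 to 26.7 CPM. Chac1, which degrades glutathione, rose by 1.66 ± 0.41 and Oplah, the 5-oxoprolinase, by 1.37 ± 0.23. In the heme and ferritin list, 3 rose and 2 fell in MetR_CE, where ferritin light chain Ftl1 fell by 0.72 ± 0.16 and Blvra rose by 0.53. Mitochondrial superoxide dismutase Sod2 rose by 1.10 ± 0.18 in MetR_CE, and 3 of the 4 superoxide dismutase and catalase genes rose there.

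In eWAT, cold upregulated 1 of the 10 genes and downregulated 0 (2.11% of all genes higher, 5.27% called in either direction). DESeq2 called 4, the fit with all libraries 2 and that with the replicate block 2, and 5 were at an unadjusted p under 0.05. The gene called by edgeR was Srxn1, at 32.6, 35.1, 35.3 and 40.8 CPM in the 4 Ctrl_RT libraries and at 39.4, 52.8 and 67.3 (lowest, median and highest) in Ctrl_CE. The change was 0.61 ± 0.17 (adjusted p = 0.0335), with 1 Ctrl_CE mouse inside the Ctrl_RT range. It was -0.0015 (adjusted p = 0.998) when the 4 eWAT libraries the study left out were put back. Srxn1 was therefore not among the 2 genes called with all libraries. Its call in the main fit ended without any one of 4 Ctrl_RT and 2 Ctrl_CE libraries. The other 9 genes lay from 0.09 (Gclc) to 0.63 (Hmox1, adjusted p = 0.0981).

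MetR_RT had 0 of the 10 genes called in eWAT by edgeR and by DESeq2, with 0 at an unadjusted p under 0.05 (0.148% of all genes called, 0.036% higher), and their log2 fold changes lay from -0.20 (Txnrd1) to 0.41 (G6pdx). MetR_CE against Ctrl_RT had 0 by edgeR, 2 by edgeR with all libraries and 1 by DESeq2. In the main fit 3 were at an unadjusted p under 0.05 (2.7% of all genes called by edgeR, 1.48% higher). Nfe2l2 was the closest, at 69.3 to 80.2 CPM against 60.9 to 68.5, a change of 0.21 ± 0.06 (adjusted p = 0.0605). These ranges, of 7 and 4 libraries, did not overlap, and the share of all genes with ranges apart is not given here. The 10 genes lay from -0.14 (Nqo1) to 0.51 (G6pdx).

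Against Ctrl_CE, MetR_CE had Srxn1 lower, at -0.60 ± 0.14 on the log2 scale (adjusted p = 0.0063), and Gsr, at -0.23 ± 0.07 (adjusted p = 0.0423). Srxn1 ran from 32 to 39.2 CPM, below all Ctrl_CE mice, and the share of all genes with ranges apart is not given for this comparison. Srxn1 and Gsr were 2 of 10, with 11.5% of all genes called, and 0 with all libraries. The call on Gsr ended without any one of 12 libraries. Against MetR_RT 0 of 10 were called by edgeR and 1 by DESeq2, with 2 at an unadjusted p under 0.05 (0.223% of all genes called by edgeR). The interaction was called for Srxn1 (-0.84 ± 0.22, adjusted p = 0.0373), 1 of 10 where 3.07% of all genes were called, and for 0 with all libraries, and it ended without any one of 14 libraries.

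The wider eWAT lists are given without the libraries the study left out, and whether their calls hold with all libraries is not shown. In these lists, Me1 (2.25 ± 0.59) and Pgd (1.3 ± 0.34), a pentose phosphate enzyme, rose in Ctrl_CE. In MetR_CE, 6 of the 7 NADPH supply genes were lower and 1 higher than in Ctrl_CE (11.5% of all genes called). The lipogenic list had 5 of 7 lower in that comparison and 5 with an interaction below 0 (list median -2.89, 3.07% of all genes called). Maff rose by 1.89 ± 0.23 in MetR_CE, from 5.79 to 21.6 CPM, and Chac1 by 1.11. Against Ctrl_RT, the macrophage list had 0 of 8 called in each eWAT group by edgeR, with 0, 3 and 2 at an unadjusted p under 0.05 in Ctrl_CE, MetR_RT and MetR_CE. Against Ctrl_CE, where Srxn1 and Gsr were lower, MetR_CE had 3 of 8 macrophage markers and 4 of 5 red blood cell markers lower and 0 higher, and their part in those values was not tested.

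Whether responses differed between tissues was tested as the difference of 2 log2 fold changes in the fit over all libraries. For MetR_RT, 7 of the 10 genes differed between liver and iWAT (12.6% of all genes called). The log2 fold change was higher in liver than in iWAT for Nqo1, by 1.99 ± 0.26 (adjusted p = 8.87e-09), for Hmox1, by 1.94, as it fell in iWAT and did not pass in liver, and for Gclc by 0.88, Nfe2l2 by 0.67, Srxn1 by 0.66 and Gsr by 0.49, and lower for G6pdx, at -1.10. Between iBAT and iWAT 3 differed (6.09% of all genes), Hmox1 (2.85 ± 0.40, adjusted p = 7.31e-07), Gsr (0.45) and Nfe2l2 (0.39). Between iWAT and eWAT the only one of the 10 was Hmox1 (-1.78, 5.27% of all genes called).

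For Ctrl_CE, 3 differed between liver and iWAT (19% of all genes), namely Hmox1 (2.00), Nqo1 (0.95) and Nfe2l2 (0.44). Between iBAT and iWAT 4 differed (12.9% of all genes), with a higher log2 fold change in iBAT for Hmox1 (2.07), Nfe2l2 (0.43) and Txnrd1 (0.33, adjusted p = 0.0437) and a lower one for Gclc (-0.43, adjusted p = 0.0427). With all libraries 2 were called, as Txnrd1 (adjusted p = 0.0724) and Gclc (adjusted p = 0.0717) no longer passed. Between iWAT and eWAT Hmox1 differed (-1.56, adjusted p = 0.00992), where 6.86% of all genes were called. Hmox1 was the gene called in all 6 tissue comparisons, and Keap1 and Gclm were called in none of them. All 6 had iWAT on 1 side, where Hmox1 was lower, and so share the iWAT libraries. Pairs of tissues without iWAT were not compared.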

How the data were processed

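RNA was sequenced with polyadenylated-RNA libraries from liver, iBAT, iWAT and eWAT of 28 mice (110 libraries), and samples were grouped by title. Counts per gene, as whole numbers and not normalised, are what the authors deposited. Their methods name STAR 2.7.9a, featureCounts 2.0.3, Salmon 1.9.0, MultiQC 1.19, DESeq2 1.46.0 and the mm10 genome, and which counter made the tables could not be settled. Gene symbols were matched for 51948 of 56884 identifiers. The 5 libraries the study left out were identified by comparing group means of the tables with its source data, which left 105. Genes with at least 10 total counts in a tissue were tested with edgeR 4.0.16 in R 4.3.3 (TMM scaling, quasi-likelihood test, 1 mean per group, Benjamini-Hochberg adjustment over all genes tested, threshold 0.05). Tissues were compared in a fit over the 105 libraries without a term for the mouse. CPM used the same scaling. Library size sets the counting error, which is largest for members with few counts, such as Nqo1 in liver and iBAT and G6pdx in liver. The spread between mice adds to it.

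The rule for named genes took all 10 members in every comparison, and those not called are in places given as counts or ranges. Of each other list, up to 2 genes per tissue with the largest absolute log2 fold change against Ctrl_RT, among those called and at a mean of at least 1 CPM, were named. Gstm1, Gsta3, Fth1, Mafg, Sqstm1, Gss, Nfe2l1 and Sesn1 were added after their values were seen. The members and lists were chosen with earlier results of these data known. Promoter sequences are those of RefSeq (GRCm38.p6), and gene positions those of GENCODE on GRCm38. Tried as alternatives were other scaling (RLE), other filters, DESeq2 1.42.0, limma 3.58.1 (voom) with the mouse as a block, the replicate number as a block, all libraries, only the compared groups, a 1.5-fold minimum, grouping by treatment tag and leaving out each library (in liver, iWAT and eWAT, not in iBAT). The test was tried on simulated data before use. 0 columns of the tables were left unused.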

Additional observations from a re-analysis of the deposited data

Results flagged for a closer look

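Of 160 groups of 4 to 7 mice (10 genes, 4 tissues, 4 conditions), 9 held a mouse far above the rest of its group by Dixon's criterion, where chance flags about 1 in 20. In iWAT these were Hmox1 in Ctrl_CE mouse 5 (202 CPM, next highest 73.9), Gclm in Ctrl_RT mouse 5 (83.9, next 51.4), G6pdx in the same Ctrl_RT mouse (402, next 235) and Gclm in MetR_CE mouse 1 (87.9, next 68.4). In eWAT they were Nqo1 in MetR_RT mouse 2 (11.1 CPM, next 6.36), Gclm in Ctrl_RT mouse 6 (58.3, next 46.9) and Txnrd1 in MetR_RT mouse 3 (141, next 110). In iBAT they were Nqo1 in MetR_RT mouse 6 (2.00 CPM, next 1.51) and Gsr in MetR_CE mouse 1 (57.9, next 52.3).

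Responses differed between tissues by the joint edgeR test in 19 of 60 comparisons (5.27% to 19% of all genes were called in each). All of these had iWAT on 1 side and are not independent of each other. To MetR_RT, liver and iWAT differed for Nqo1 (1.99), Hmox1 (1.94), Gclc (0.88), Nfe2l2 (0.67), Srxn1 (0.66), Gsr (0.49) and G6pdx (-1.10), all as log2 differences. iBAT and iWAT differed for Hmox1 (2.85), Gsr (0.45) and Nfe2l2 (0.39), and iWAT and eWAT for Hmox1 (-1.78). To Ctrl_CE, liver and iWAT differed for Hmox1 (2.00), Nqo1 (0.95) and Nfe2l2 (0.44), iBAT and iWAT for Hmox1 (2.07), Nfe2l2 (0.43), Txnrd1 (0.33) and Gclc (-0.43), and iWAT and eWAT for Hmox1 (-1.56). The effect of cold differed between the diets in 8 of 40 comparisons (0.903% to 3.07% of all genes), each with a value below 0. In liver these were Nfe2l2 (-0.61), Nqo1 (-1.18), Gclc (-0.90), Gclm (-0.45) and Txnrd1 (-0.39), in iBAT Gsr (-0.46) and Srxn1 (-0.56), and in eWAT Srxn1 (-0.84).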

How the results depend on the processing

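Single-gene values kept their direction and side of the threshold in 6344 of the recomputed cases, lost a call in 100, gained one in 58 and moved without a call in 147. The 1 reversal was Srxn1 in eWAT Ctrl_CE, at -0.0015 (adjusted p = 0.998) with all libraries. Counts of called genes stayed within 1.5 times of the reported count in 617 cases and not in 72. With a minimum of 1.5-fold, the counts in Ctrl_CE, MetR_RT, MetR_CE, MetR_CE against MetR_RT and the interaction came to 3, 3, 1, 1 and 3 (liver) and 3, 3, 4, 2 and 0 (iBAT). The iWAT counts that moved were Ctrl_CE with 2, MetR_CE with 3 and MetR_CE against MetR_RT with 1, and that of eWAT was MetR_CE against Ctrl_CE with 1. With iBAT grouped by treatment tag, 3 genes were called for MetR_CE against MetR_RT and 0 interactions. DESeq2 called 2 interactions in iWAT and, in eWAT, 4 genes in Ctrl_CE, 1 in MetR_CE, 1 against MetR_RT and 3 interactions. With filterByExpr, eWAT MetR_CE had 1. All libraries gave 2 genes in eWAT Ctrl_CE, 2 in MetR_CE, 0 against Ctrl_CE and 0 interactions. They gave 2 tissue differences for Ctrl_CE between iBAT and iWAT, 3 between iWAT and eWAT and 2 for MetR_RT between iWAT and eWAT. The voom fit with the mouse as a block (consensus correlation 0.0328) gave 2 for Ctrl_CE between iWAT and eWAT, and it moved the median of all genes by 0.603 for Ctrl_RT liver against iWAT. The cause of these differences was not tested.

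Same-numbered mice of different groups did not deviate together (median r from -0.00624 for liver to 0.0553 for eWAT, lowest -0.372), so the numbers were not taken as pairs. With the replicate number as a block, eWAT Ctrl_CE had 2 calls, and every other count stayed within 1.5 times.

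Leaving out each library in turn gave, in liver, 5 to 6 calls in Ctrl_CE, 7 to 8 in MetR_RT, 2 to 4 in MetR_CE, 3 to 3 against Ctrl_CE, 2 to 4 against MetR_RT and 3 to 5 interactions. In iWAT the counts were 5 to 7, 2 to 5, 5 to 8, 0 to 0, 3 to 4 and 0 to 2, and in eWAT 0 to 2, 0 to 0, 0 to 1, 1 to 2, 0 to 0 and 0 to 2, in the same order. This was chosen after seeing the data for liver and iWAT, and it was not run for iBAT. In liver, G6pdx had as few as 14 counts in a library, which limits what can be detected for it.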

Other observations

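Cyp2e1, an ethanol-metabolising cytochrome P450 held in the hepatocyte marker list, was lower in all 3 depots. In iBAT MetR_RT it was at -2.87 ± 0.50 on the log2 scale (edgeR, adjusted p = 0.000583), from a mean of 66.8 to 9.07 CPM. In MetR_CE it was at -2.59 ± 0.48 in iWAT (adjusted p = 0.000112) and at -2.71 ± 0.52 in eWAT (adjusted p = 0.00505). Skeletal muscle markers summed to 2.29 to 4907 CPM in iWAT Ctrl_RT and to 85.3 to 18935 in iWAT MetR_RT. Of these markers 1 of 6 was called (Myh1, 2.80 ± 1.02, adjusted p = 0.0471), where 22.4% of all genes were. Red blood cell markers had 4 of 5 lower and 0 higher in MetR_CE in iBAT and in iWAT (33.4% and 37% of all genes called).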
